A study of Mus musculus with 6 samples.

Results

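The genes described here are the collagens other than the basement membrane chains Col4a1 and Col4a2, followed in mouse embryoid bodies that lack the Tet genes. They are the mouse genes whose symbol is Col, a number, a and a number, found through the RefSeq accession of each array probe. The reference table held 42 such genes, and 41 of them had a probe, 61 probes in all, with Col12a1 the gene for which none was matched. Of these, 29 were tested among 21421 genes and unnamed features, those with a probe that 1 line or more showed well above background on each of its 2 arrays. The collagens were sorted by class into fibrillar, network, FACIT (fibril-associated), transmembrane, beaded filament, multiplexin and other collagens.

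Embryoid bodies are aggregates of differentiating embryonic stem cells. The cells of lines TKO#26 and TKO#29 carried a Tet1/2/3 triple knockout, and those of the single WT line did not; all were labelled mixed 129/C57BL6. Each was kept without LIF, the cytokine that holds stem cells undifferentiated, for 2 days in hanging drops and then 8 days in suspension, to day 10. Total RNA of each line went onto 2 one-colour Agilent arrays, 6 in all, which the design text calls technical replicas. A p-value over arrays therefore covers at most the spread between arrays of a line, not between independent cultures. The genotypes rest on 2 TKO lines against 1 WT line, and no other WT line was measured.

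Collagens are secreted or membrane-bound proteins built of 3 alpha chains wound into a triple helix. Fibrillar collagens form the cables of connective tissue, network collagens the sheets of basement membranes and related layers, and FACIT collagens sit on the surface of fibrils. The chains are hydroxylated and folded in the endoplasmic reticulum, trimmed outside the cell by proteases and cross-linked by lysyl oxidases. TET enzymes oxidise 5-methylcytosine in DNA. In a developing embryo, collagens are made above all by mesenchyme, cartilage and the cells that line basement membranes.

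From 38.4% to 55.8% of the spots of an array were well above background, and replicate 1 of TKO#26 was the noisiest, with a median coefficient of variation of 22.95% among repeated spots, against 11.85% to 13.41% on the other 5 arrays. The 75th percentile of the processed signal was 501 and 886 on the WT arrays, 574 and 1001 on the TKO#26 arrays, and 2198 and 1127 on the TKO#29 arrays. On brighter arrays the background flag could pass levels that were lower relative to this percentile. A gene above background in TKO#29 alone is therefore not shown to be expressed in that line alone. The 4 TKO arrays lay in one row of the slide and the WT arrays in the other, so position and genotype cannot be told apart. Between the 2 arrays of a line, log2 levels differed with an SD of 0.38 in TKO#26, 0.23 in TKO#29 and 0.30 in WT, over 13255 genes. The Tet1 probe differed by -1.02 in TKO#26 and -1.69 in TKO#29 from WT, the Tet2 probe by -1.09 and -1.90, and the Tet3 probe by 1.05 and -0.62. Tet1 and Tet2 passed the test described next and Tet3 did not (adjusted p = 0.100 in TKO#26 and 0.222 in TKO#29, limma). The sources used here do not say whether these probes lie in the deleted exons.

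Levels are log2 processed signals minus the array's 75th percentile, so they compare arrays for 1 gene but not genes with each other. A gene was counted as having fallen or risen when both TKO lines differed from WT by at least 2-fold in the same direction, each with a Benjamini-Hochberg adjusted p under 0.05 in limma over all genes tested. By this rule 10 of the 29 tested collagens (34.5%) fell and 0 rose, where 6.59% of all genes tested fell and 4.05% rose. They were the fibrillar Col3a1, Col5a1 and Col11a1, the network chains Col4a5 and Col4a6, the FACIT Col9a1, Col14a1 and Col22a1, the transmembrane Col23a1, and Col26a1. At an unadjusted p under 0.05 in both lines, 12 collagens (41.4%) were lower than WT and 1 (3.45%), Col16a1, was higher, where 15.5% of all genes were lower and 14.3% higher. On line averages 11 (37.9%) differed at that level, and 18.0% of all genes did. The median difference of the tested collagens was -0.51, against -0.04 for all genes tested; over those well above background on all 6 arrays it was -0.11 for 16 collagens and -0.05 for all such genes. In RNA of whole embryoid bodies, fewer cells of a type and less RNA per cell cannot be told apart.

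Both WT arrays showed all 10 collagens that fell well above background. Col26a1, Col3a1, Col5a1 and Col4a5 were so on all 6 arrays; Col11a1, Col22a1, Col9a1, Col4a6 and Col23a1 on 3 of 4 TKO arrays, and Col14a1 on the TKO#29 arrays alone of the TKO arrays. Among the 16 collagens measured above background on all 6 arrays, 4 fell (25.0%, against 4.80% of all genes measured so). With each line counted as 1 sample, Col26a1 (adjusted p = 0.0461) and Col9a1 (adjusted p = 0.0491) passed the same thresholds in limma, 2 of 29, where 0.752% of all genes tested were lower and 0.154% higher.

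**Figure D1:**
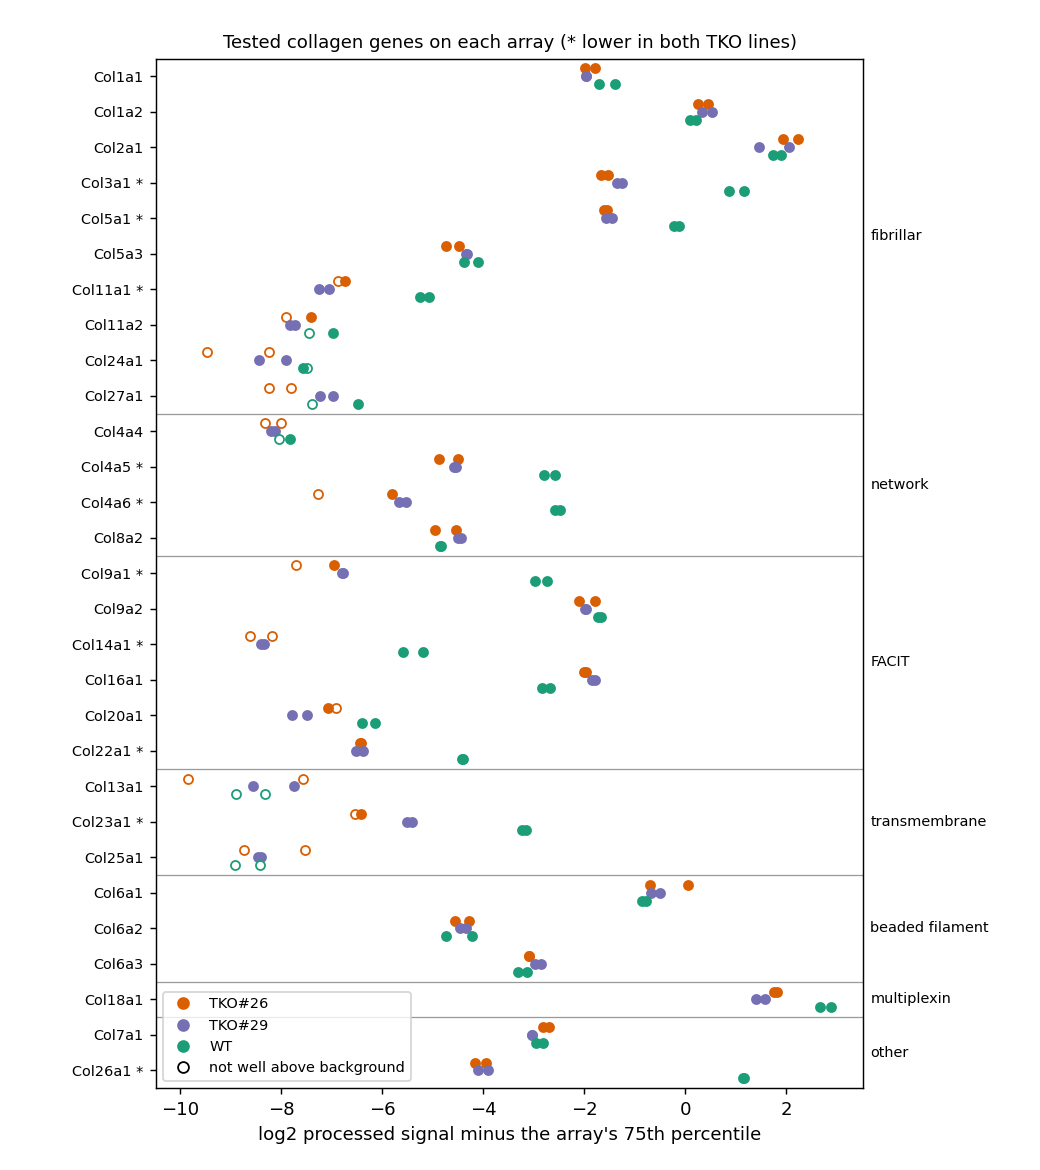
Level of each tested collagen on every array, as log2 processed signal minus the array's 75th percentile, by class; open circles mark spots not well above background and asterisks the 10 genes that fell. Levels compare arrays within a gene. For each marked gene the 4 TKO points lie left of both WT points, while Col1a2, Col2a1, Col6a1 and Col7a1 lie near or among them.

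Among fibrillar collagens, 10 of the 11 genes were tested and 3 fell, with a class median of -0.57. Col3a1 encodes the chain of collagen III, found with collagen I in skin, vessels and gut wall. Its level was -1.52 and -1.66 on the TKO#26 arrays, -1.34 and -1.25 on the TKO#29 arrays, and 1.16 and 0.86 on the WT arrays. Every TKO array was below both WT arrays, and the line means were 6.07-fold lower in TKO#26 (adjusted p = 0.00122) and 4.93-fold lower in TKO#29 (adjusted p = 0.00143) than in WT. Averaged over the TKO lines the difference was -2.45 ± 0.33 (limma SE, 2 TKO lines and 1 WT line), with an adjusted p of 0.0708 on line averages in limma. This SE pools the gene's spread with that of all genes, so it is not the measured spread between the lines.

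Col5a1 encodes a chain of collagen V, which nucleates collagen I fibrils. Its arrays read -1.61 and -1.54 in TKO#26, -1.45 and -1.57 in TKO#29, and -0.13 and -0.21 in WT. The groups did not overlap, with a fold of 2.65 lower in TKO#26 (adjusted p = 0.00282) and 2.53 lower in TKO#29 (adjusted p = 0.00270). Col11a1, a chain of the collagen XI that forms the core of cartilage fibrils, stood at -6.87 and -6.73 in TKO#26, -7.06 and -7.24 in TKO#29, and -5.08 and -5.24 in WT. Again the WT arrays were the highest. Replicate 1 of TKO#26 was not well above background, so the fall is at least 3.16-fold over both lines on the processed signal (adjusted p = 0.00282 in TKO#26 and 0.00158 in TKO#29). The mean difference was -1.82 there, and -1.26 both with normexp background correction and in the authors' matrix.

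The main chains of the commonest fibrils did not pass. Col1a1 read -1.78 and -1.98 in TKO#26, -1.96 and -1.97 in TKO#29, and -1.39 and -1.71 in WT, a difference of -0.33 in TKO#26 (adjusted p = 0.212) and -0.41 in TKO#29 (adjusted p = 0.102). Col1a2, its partner in collagen I, read 0.45 and 0.25 in TKO#26, 0.34 and 0.53 in TKO#29, and 0.22 and 0.09 in WT. All TKO values of Col1a2 were above the WT values, by 0.20 and 0.28 per line, and those of Col1a1 all below. Col2a1, the collagen of cartilage, overlapped between the lines, at 2.23 and 1.94 in TKO#26, 1.47 and 2.05 in TKO#29, and 1.89 and 1.75 in WT; its spot on replicate 1 of TKO#29 was saturated. For Col5a3, Col11a2, Col24a1 and Col27a1, lesser fibrillar chains, adjusted p lay between 0.0853 and 0.738. Col5a3, well above background on all 6 arrays, differed by -0.35 in TKO#26 and -0.07 in TKO#29. Col11a2, Col24a1 and Col27a1 were above background on 1 of 2 WT arrays each, and Col24a1 and Col27a1 on no TKO#26 array, so their sizes are not given.

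Of the network collagens, 4 of 7 were tested and 2 fell. Col4a5 and Col4a6 encode alpha chains of basement membranes such as those of kidney and smooth muscle. Col4a5 was at -4.88 and -4.50 in TKO#26, -4.53 and -4.58 in TKO#29, and -2.58 and -2.80 in WT. It was 4.00-fold lower in TKO#26 (adjusted p = 0.00313) and 3.66-fold lower in TKO#29 (adjusted p = 0.00305), with no overlap and all spots above background.

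Col4a6 was at -7.26 and -5.81 in TKO#26, -5.52 and -5.67 in TKO#29, and -2.47 and -2.58 in WT. The TKO arrays were all below WT, with replicate 1 of TKO#26 the lowest and not above background, which makes the fall at least 9.74-fold on this probe's processed signal (adjusted p = 0.00685 in TKO#26 and 0.0105 in TKO#29). A second, dimmer Col4a6 probe gave -6.15 and -6.71 in TKO#26, -7.34 and -7.39 in TKO#29, and -7.24 and -6.44 in WT, so that on it the lines overlapped; it was above background on 1 WT array. The 2 probes of Col4a6 thus disagreed: their mean differed by -1.80, against -3.54 for the brighter probe alone and -2.92 for it with normexp background correction. Moreover, without WT replicate 1 or either TKO#29 array the gene did not pass, at differences of -3.58 to -3.48. Col8a2, a corneal chain, differed by 0.09 in TKO#26 and 0.37 in TKO#29 and did not pass. Nor did the basement membrane chain Col4a4, which was above background on both TKO#29 arrays and 1 WT array. The Col4a5 and Col4a6 genes lie head to head on chromosome X with their starts 1343 bases apart in RefSeq; of the 532 chromosome X genes tested, 51 fell (9.59%).

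FACIT collagens gave 3 falls among 6 tested genes. Col9a1 is a chain of collagen IX, which coats the collagen II fibrils of cartilage and vitreous. It read -7.71 and -6.96 in TKO#26, -6.79 and -6.77 in TKO#29, and -2.73 and -2.98 in WT. The gap between every TKO array and WT made a fall of at least 14.3-fold (adjusted p = 0.00130 in TKO#26 and 0.00155 in TKO#29), with replicate 1 of TKO#26 not above background, and a mean difference of -4.20 ± 0.39 (limma SE, 2 TKO lines and 1 WT line). That difference was smaller with normexp (-3.16) and in the authors' matrix (-3.36), so the bound holds for the processed signal only. Another Col9a1 probe was well above background on 2 of 4 TKO arrays and no WT array, and stood out on TKO#26 replicate 2 alone, at -4.31.

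Col14a1, which binds collagen I fibrils in skin and tendon, read -8.17 and -8.62 in TKO#26, -8.40 and -8.34 in TKO#29, and -5.58 and -5.19 in WT. All TKO arrays were below WT and those of TKO#26 were not above background, a fall of at least 5.71-fold (adjusted p = 0.00179 in TKO#26 and 0.00173 in TKO#29) on the processed signal. The difference of -3.0 there was -1.55 in the authors' matrix. A second Col14a1 probe, above background on 1 WT and 1 TKO array, read -9.39 to -8.38 on the TKO arrays and -8.78 and -7.58 on the WT arrays, which overlap. Col22a1, found at tissue junctions such as that of muscle and tendon, read -6.41 and -6.44 in TKO#26, -6.51 and -6.38 in TKO#29, and -4.41 and -4.40 in WT. The WT arrays were both higher than every TKO array, by at least 3.96-fold over the lines on the processed signal (adjusted p = 0.00115 in TKO#26 and 0.00103 in TKO#29). With normexp background correction Col11a1, Col14a1 and Col22a1 did not pass, at -1.26, -1.46 and -1.49.

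Col20a1, the FACIT gene called in 1 line only, read -6.92 and -7.08 in TKO#26, -7.78 and -7.48 in TKO#29, and -6.40 and -6.15 in WT. It was lower than WT by 2.56-fold in TKO#29 (adjusted p = 0.00620) and by at least 1.31-fold in TKO#26 (adjusted p = 0.0418), under the 2-fold limit there. The difference between the TKO lines, 0.63 for TKO#26 minus TKO#29, had an adjusted p of 0.140. A second Col20a1 probe, above background on 3 of 4 TKO arrays and 1 WT array, read -8.10 and -7.29 in TKO#26, -7.67 and -7.51 in TKO#29, and -6.75 and -6.41 in WT, without that gap between the TKO lines. Col16a1, a FACIT of fibroblasts and smooth muscle, was the other way round: -2.0 and -1.96 in TKO#26, -1.84 and -1.79 in TKO#29, and -2.67 and -2.84 in WT. All TKO arrays were above WT, by 0.77 (adjusted p = 0.0146) in TKO#26 and 0.94 (adjusted p = 0.00667) in TKO#29, under 2-fold in each. Its second probe, with values of -5.90 to -5.57 on the TKO arrays and -6.71 to -6.59 on the WT arrays, also gave higher TKO values. That probe was not well above background on replicate 1 of WT or replicate 1 of TKO#26. Col9a2, a second chain of collagen IX, differed by -0.25 and -0.28 per line and did not pass.

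Of the 4 transmembrane collagens, 3 were tested and Col23a1 fell. Its product spans the plasma membrane and its ectodomain can be shed. The probe that stood for Col23a1 read -6.54 and -6.41 in TKO#26, -5.51 and -5.40 in TKO#29, and -3.16 and -3.23 in WT. TKO#26 was the lowest line and TKO#29 lay between it and WT, with a fall of at least 6.48-fold over the lines on the processed signal (adjusted p = 0.000571 in TKO#26 and 0.000968 in TKO#29). The mean difference was -2.77, and -2.16 with normexp. TKO#26 minus TKO#29 was -1.02 (adjusted p = 0.0591), and a second Col23a1 probe did not show that order, at -6.62 and -6.52 in TKO#26, -6.93 and -6.28 in TKO#29, and -3.81 and -3.74 in WT. Col13a1, of the neuromuscular junction, and Col25a1, known from motor innervation of muscle, were above background on both TKO#29 arrays and on no other array. The flag passed lower levels there: Col13a1 was flagged at -8.56 and -7.74 in TKO#29 but not at -7.57 on TKO#26 replicate 1. Neither gene passed, and no size is given for them.

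Outside the 4 classes, Col26a1, a secreted collagen described from testis and ovary, had the largest difference of the tested collagens. It was at -4.17 and -3.94 in TKO#26, -3.91 and -4.11 in TKO#29, and 1.14 and 1.16 in WT. The 6 arrays formed a tight low set of TKO and a tight high pair of WT, with a fold of 36.9 lower in TKO#26 (adjusted p = 0.000349) and 35.7 lower in TKO#29 (adjusted p = 0.000365). The mean difference was -5.18 ± 0.31 (limma SE pooled with the spread of all genes, 2 TKO lines and 1 WT line). TKO#26 minus TKO#29 was -0.05.

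Beaded filament collagens, the collagen VI microfibrils around cells, gave no falls among 3 tested genes: Col6a1, Col6a2 and Col6a3 differed by 0.06 to 0.50 per line, with adjusted p of 0.130 to 0.873. Col7a1, the anchoring fibril collagen of skin, differed by 0.13 and -0.15. Col18a1, a multiplexin of basement membranes that yields endostatin, read 1.81 and 1.76 in TKO#26, 1.40 and 1.58 in TKO#29, and 2.89 and 2.68 in WT. All its TKO arrays were below WT, by 2.45-fold in TKO#29 (adjusted p = 0.00422) and by just under 2-fold in TKO#26 (difference -1.0, adjusted p = 0.0105); without WT replicate 2 or TKO#26 replicate 1 it passed in both lines. A second Col18a1 probe read 1.25 to 1.57 on the TKO arrays and 2.18 to 2.34 on the WT arrays.

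The other 12 collagens were not tested. No probe of Col4a3, Col6a5, Col8a1, Col9a3, Col10a1 or Col28a1 was well above background on any array. The best probes of Col5a2, Col6a4, Col6a6, Col15a1, Col17a1 and Col19a1 were so on 1 or 2 arrays. No level is given for these, and among them are Col10a1, the collagen of hypertrophic cartilage, and Col5a2, the partner of Col5a1.

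**Figure D2:**
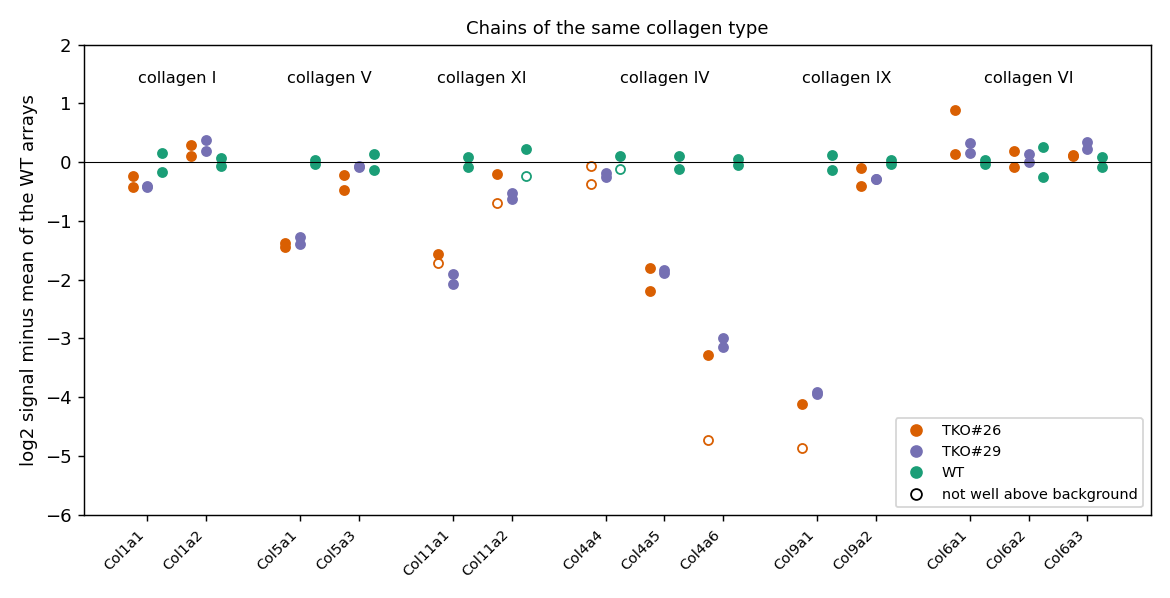
Chains of the same collagen type on every array, as log2 signal minus the mean of the 2 WT arrays, so that 0 is the WT level; open circles are not well above background. Col5a1, Col11a1, Col4a5, Col4a6 and Col9a1 lie well below 0 in TKO, and Col5a3, Col11a2, Col4a4 and Col9a2 lie near it.

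Chains that assemble into one collagen type did not all show the same difference. Col5a1 differed by -1.41 in TKO#26 and -1.34 in TKO#29, while Col5a3 differed by -0.35 and -0.07. Col9a1 differed by -4.48 and -3.92, where Col9a2 differed by -0.25 and -0.28. Col11a1 differed by -1.64 and -1.99, and Col11a2, above background on 1 WT array, did not pass. Differences between chains were not tested, and Col5a2 and Col9a3 were too dim to set beside their partners.

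Both TKO lines were compared with the same WT arrays, so they are not independent of each other. TKO#26 and TKO#29 gave 0 collagens that passed the test of 1 line against the other in limma, as for all genes tested (0%). At an unadjusted p under 0.05 in limma, 3 of the 29 tested collagens differed between them, Col20a1, Col23a1 and Col27a1. Of the 21421 genes tested 4787 did, a larger share than among the collagens. With a variance trend Col23a1 passed (-1.02), and without TKO#26 replicate 2 Col23a1 (-1.09) and Col4a6 (-1.66) did.

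**Figure D3:**
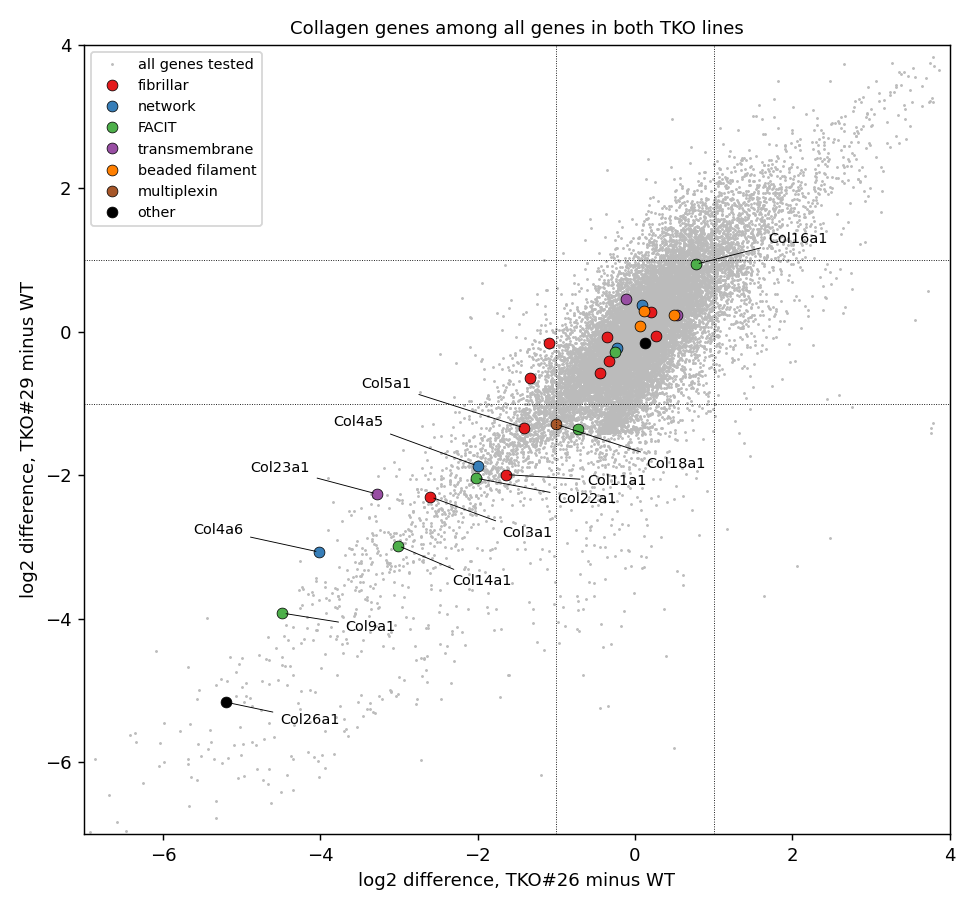
Log2 difference from WT in TKO#26 (x axis) and TKO#29 (y axis) for each tested gene, collagens coloured by class and all genes in grey; dotted lines mark 2-fold, and 63 genes lie outside the axes. Both axes share the same WT arrays. The 10 collagens that fell lie beyond 2-fold at lower left, and Col16a1 lies at upper right, just inside 2-fold.

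The start regions of some of these genes are shown because Tet enzymes act on methylated CG pairs and the genes that fell range widely in CG content. Each line gives the 250 bases before the start of a gene in RefSeq, build GRCm38.p6, written 5' to 3' on the gene's strand, with every CG in capitals. Col3a1 and Col9a1 fell and hold none, Col5a1, Col23a1, Col4a5 and Col4a6 fell and hold 28, 18, 10 and 3, and Col1a2 did not pass and holds 11. Col26a1, Col14a1, Col22a1, Col1a1 and Col2a1 had no entry in the table.
Col3a1, chr1:45311288-45311537, plus strand: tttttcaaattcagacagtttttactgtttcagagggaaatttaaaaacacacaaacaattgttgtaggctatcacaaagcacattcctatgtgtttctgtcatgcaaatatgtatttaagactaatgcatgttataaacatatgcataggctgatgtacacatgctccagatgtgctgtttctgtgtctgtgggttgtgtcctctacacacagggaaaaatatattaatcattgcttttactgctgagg
Col9a1, upstream start, chr1:24177360-24177609, plus strand: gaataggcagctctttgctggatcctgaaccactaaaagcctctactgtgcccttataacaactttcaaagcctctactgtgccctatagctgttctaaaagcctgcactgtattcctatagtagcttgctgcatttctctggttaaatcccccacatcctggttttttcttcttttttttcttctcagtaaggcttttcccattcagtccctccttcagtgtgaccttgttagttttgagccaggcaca
Col9a1, downstream start, chr1:24194953-24195202, plus strand: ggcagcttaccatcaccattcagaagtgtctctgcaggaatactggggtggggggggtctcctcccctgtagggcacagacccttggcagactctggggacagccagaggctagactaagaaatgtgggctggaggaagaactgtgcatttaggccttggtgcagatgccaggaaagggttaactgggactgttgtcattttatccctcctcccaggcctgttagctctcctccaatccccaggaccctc
Col5a1, chr2:27886175-27886424, plus strand: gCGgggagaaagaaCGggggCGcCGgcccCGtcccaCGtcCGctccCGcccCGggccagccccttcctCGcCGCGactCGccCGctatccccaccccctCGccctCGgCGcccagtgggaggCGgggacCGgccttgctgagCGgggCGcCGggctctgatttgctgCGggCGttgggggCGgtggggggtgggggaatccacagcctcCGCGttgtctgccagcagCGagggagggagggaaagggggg
Col23a1, chr11:51289670-51289919, plus strand: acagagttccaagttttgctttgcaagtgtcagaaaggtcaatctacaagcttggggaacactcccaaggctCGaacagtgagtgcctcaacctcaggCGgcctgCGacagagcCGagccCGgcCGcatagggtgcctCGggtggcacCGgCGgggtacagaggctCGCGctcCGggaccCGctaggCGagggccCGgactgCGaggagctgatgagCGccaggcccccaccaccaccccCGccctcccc
Col4a5, chrX:141475169-141475418, plus strand: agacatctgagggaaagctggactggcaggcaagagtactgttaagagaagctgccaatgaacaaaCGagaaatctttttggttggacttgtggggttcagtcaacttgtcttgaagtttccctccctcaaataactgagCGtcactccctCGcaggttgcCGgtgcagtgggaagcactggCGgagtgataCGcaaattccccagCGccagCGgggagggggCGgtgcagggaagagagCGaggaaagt
Col4a6, chrX:141474077-141474326, minus strand: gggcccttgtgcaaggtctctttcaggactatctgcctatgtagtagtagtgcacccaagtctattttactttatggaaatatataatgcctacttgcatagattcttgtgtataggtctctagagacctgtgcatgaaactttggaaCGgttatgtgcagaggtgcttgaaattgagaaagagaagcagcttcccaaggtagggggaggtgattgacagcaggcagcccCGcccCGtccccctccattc
Col1a2, chr6:4505368-4505617, plus strand: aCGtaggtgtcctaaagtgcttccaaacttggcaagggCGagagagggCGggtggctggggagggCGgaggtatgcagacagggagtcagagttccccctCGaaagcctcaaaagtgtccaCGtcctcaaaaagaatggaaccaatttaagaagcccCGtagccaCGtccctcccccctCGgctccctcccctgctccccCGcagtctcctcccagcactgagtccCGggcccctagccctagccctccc

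The array measures RNA, and methylation of these windows was not measured. The 7 genes that fell and had an entry gave 8 windows with 0 to 28 CG, median 5, and 37.5% of them held none. Those were the window of Col3a1 and both windows of Col9a1, which were counted separately, so the share rests on these genes alone. Of the tested collagens that did not pass, the 17 with an entry gave 19 windows with 1 to 24 CG, median 11, and 0% without. Over all 32851 RefSeq windows the median was 6 and 7.9% held none. The letters TATAA, on either strand, were in 37.5% of the windows of genes that fell, 10.5% of the others and 22.8% of all windows. CCAAT was in 37.5%, 31.6% and 33.8%, and GGGCGG in 62.5%, 63.2% and 32.7%, in the same order. Matches of different motifs can overlap, each GGGCGG holds a CG, and a match is a description of these letters only.

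Genes that make, trim and bind collagen were followed beside the collagens. Their counts, in this and the next paragraph, stand against 6.59% of all genes tested that fell and 4.05% that rose. Of 21 tested genes of procollagen modification and folding 4 fell and 0 rose: Fkbp10 (2.65-fold) and Fkbp14 (2.23-fold), prolyl isomerases of the endoplasmic reticulum, Serpinh1 (2.10-fold), the collagen chaperone HSP47, and Creb3l1 (2.08-fold), a transcription factor of secretory cells. Of 11 genes of procollagen processing and cross-linking 2 fell, Adamts2 (6.19-fold), which cuts off the amino-terminal propeptide, and Pcolce (2.70-fold), which enhances removal of the carboxy-terminal one. Adamts2 read -5.54 and -5.48 in TKO#26, -5.50 and -5.63 in TKO#29, and -2.90 and -2.92 in WT, with no overlap. The lysyl oxidase gene Loxl4 passed as higher in both lines, but it was not above background on either WT array and on 2 TKO arrays, so no fold is given. Lox itself was above background on both TKO#29 arrays and on no TKO#26 or WT array; it was at least 1.69-fold higher in TKO#29 than in WT (adjusted p = 0.00111), and no fold is given for TKO#26.

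Of 13 fibril-associated genes 3 fell: Tgfbi (16.6-fold), a secreted adhesion protein, Lum (2.53-fold), a small leucine-rich proteoglycan of fibrils, and Fbln1 (2.50-fold). Tgfbi read -2.87 and -2.50 in TKO#26, -2.17 and -2.39 in TKO#29, and 1.58 and 1.56 in WT, and the TKO arrays were all lower. The fibril proteoglycan genes Dcn and Bgn, in contrast, differed by 0.08 to 0.96 per line and did not pass. Of 8 collagen receptor genes Itga1 (at least 3.34-fold, 2 of 4 TKO arrays above background) and Mrc2 (2.55-fold), which takes up collagen, fell. Of 10 genes of collagen-degrading proteases and their inhibitors 0 fell and Mmp9, a gelatinase, rose 2.19-fold. Among 13 regulators of collagen genes 6 fell and 0 rose, with the largest differences for Tgfb2 (3.75-fold), Prrx1 (3.61-fold), Sox9 (2.79-fold), the cartilage factor that acts on Col2a1 and Col9a1, and Twist1 (2.50-fold).

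Most fibroblast and mesenchyme markers were lower beside these falls, and most cartilage markers, dim in WT, did not pass. Of 12 tested fibroblast and mesenchyme markers 10 fell (83.3%, against 6.59% of all genes tested), with a median of -1.96: Twist2 16.7-fold, Meox1 10.6-fold, Pdgfrb 9.06-fold and Fbn1 6.92-fold were the largest. Meox2, among the 10, was above background on 1 WT array and no TKO#26 array. Thy1 was higher on every TKO array, by 0.77 in TKO#26 and 0.69 in TKO#29, and S100a4 overlapped between the genotypes. Neither Thy1 nor S100a4 passed. The summed level of the list, in multiples of the array's 75th percentile, was 2.681 to 3.183 on the TKO arrays and 8.961 to 9.158 on the WT arrays, and Tcf21 and Dpt were not tested. Vim made up 55.3% of the WT sum, and without it the sums were 1.562 to 1.769 in TKO and 3.897 to 4.211 in WT. Prrx1 and Twist1 stand in this list and among the regulators, and Creb3l1 stands among the regulators and the genes of procollagen modification and folding. Of 7 cartilage markers 1 fell, Hapln1, a link protein of cartilage matrix, at least 86.6-fold lower with 2 of 4 TKO arrays above background. The other 6 did not pass, and the list's median difference was 0.11. Their WT means were low, from -7.26 (Matn3) to -5.25 (Ucma), so they had little room to fall. Acan and Matn3 were above background on 1 WT array each. The cartilage sums were 0.128 to 0.143 on TKO arrays and 0.507 to 0.540 on WT arrays, and Hapln1 made up 79.1% of the WT sum; without it they were 0.125 to 0.140 and 0.107 to 0.112. Sums without the brightest marker were added after the full sums were seen. Cnmd, Snorc and Chad were too dim to test.

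All 7 heart muscle markers fell, with sums of 1.638 to 1.876 on TKO arrays and 25.1 to 25.5 on WT arrays. Of 8 endothelial markers 6 fell (sums 2.458 to 3.691 in TKO and 7.548 to 9.381 in WT), as did 8 of 10 parietal and visceral endoderm markers (4.104 to 4.772 in TKO and 9.696 to 11.109 in WT) and 1 of 4 smooth muscle markers, Acta2 (5.568 to 9.970 in TKO and 13.188 to 18.434 in WT). Most pluripotent cell markers went the other way: 4 of 7 rose (Dppa3, Nanog, Sox2 and Klf2), with sums of 9.356 to 11.043 in TKO and 5.872 to 6.035 in WT. Zfp42 was lower on all TKO arrays, by -0.98 in TKO#26 and -0.93 in TKO#29. Pou5f1 differed by 0.22 and 0.60, and neither of these genes passed. One of 4 bone markers rose (Spp1), 1 of 6 neural markers fell (Tubb3), 1 of 5 neural crest markers fell and 1 rose (Ets1 and Sox10), and 1 of 6 epithelial markers fell and 1 rose (Krt14 and Cdh1). Of all genes tested 6.59% fell and 4.05% rose, and 1 call in so short a list is not read as a result about the list. The neural markers Sox1 and Pax6 passed as higher in TKO#29 only, with all TKO arrays above WT, and the neural list median was -0.13. Nes made up 75.1% of the neural WT sum, and without it the sums were 0.179 to 0.237 in TKO and 0.256 to 0.345 in WT. The sums of bone markers were 1.413 to 2.505 in TKO and 0.609 to 0.858 in WT, of neural markers 0.719 to 0.805 and 1.124 to 1.295, of neural crest markers 0.365 to 0.407 and 0.551 to 0.566, and of epithelial markers 10.288 to 16.339 and 14.501 to 18.559. Some of these sums turned on 1 bright marker: without Ets1 the neural crest sums were 0.268 to 0.332 in TKO and 0.261 to 0.264 in WT, with a list median of 0.55. Without Krt18 the epithelial sums were 5.742 to 9.943 in TKO and 5.525 to 6.312 in WT, and without Acta2 the smooth muscle sums were 3.458 to 7.711 in TKO and 6.425 to 7.251 in WT. The part that these markers' cells have in the collagen differences was not tested.

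**Figure D4:**
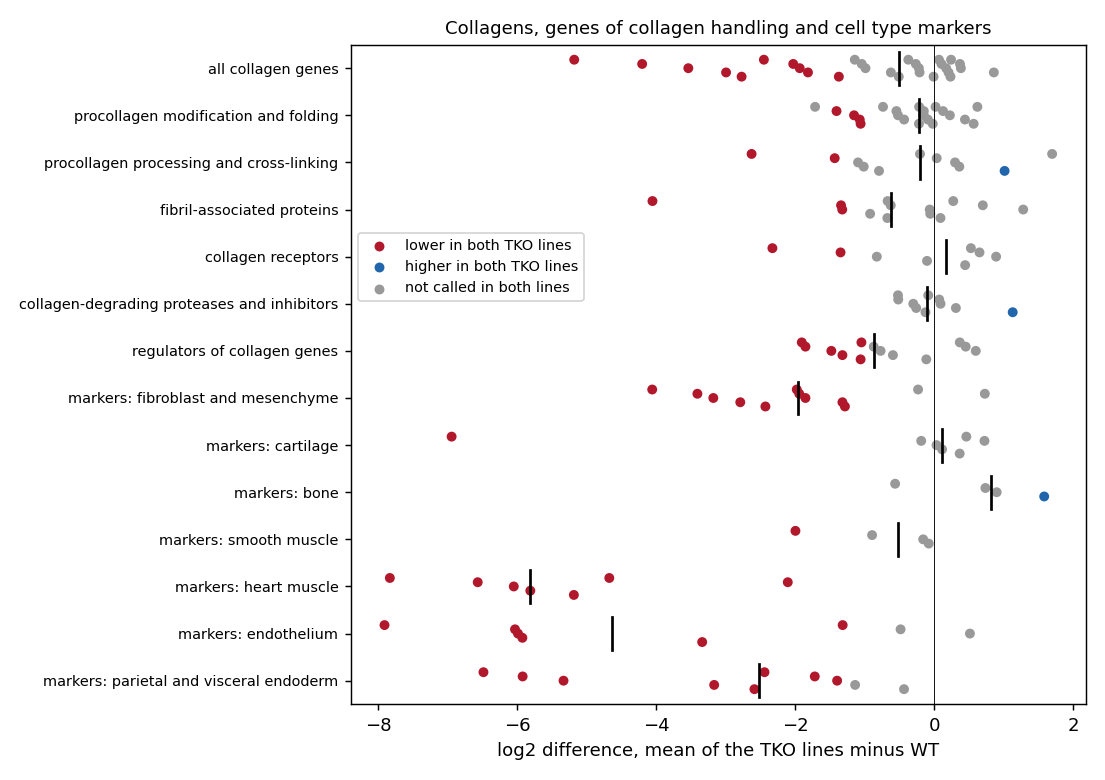
Log2 difference, mean of the TKO lines minus WT, of each tested gene of the collagen, pathway and marker lists; red points fell, blue points rose, grey points did not pass in both lines, and vertical bars are list medians. Of the list medians that of heart muscle markers (-5.81) lies farthest to the left, and the collagens spread between -5.18 and 0.86 around a median of -0.51.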

How the data were processed

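Per the labels' protocols, Cy3-labelled cRNA made from total RNA of the embryoid bodies went onto Agilent arrays read in 1 colour. Per the file headers, Agilent Feature Extraction 10.5.1.1 gave each spot's intensity (processed signal, median signal and local background) with flags of outlier, saturation and well above background; the files were deposited without normalization between arrays. A matrix of log2 values was deposited too, and the sources used here do not give its processing. Its columns had medians of 6.86 to 6.89 and followed the log2 median signal of their own array (r 0.9953 to 0.9998). For TKO#29 replicate 1 these were 0.9962 and, with another array, 0.9963, so that column was hardly told apart. The scale and direction were settled this way, and the values are not centred per gene.

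Control and outlier spots were left out (263 of 55681 probes lost), saturated spots kept and repeated spots averaged. Probes were named through their accession in RefSeq (GRCm38.p6), and 27509 had a symbol. The log2 processed signal was scaled by the 75th percentile on each array, taken over 19178 probes above background on all 6. The brightest tested probe stood for its gene. One limma fit (limma 3.58.1, R 4.3.3) of the 6 arrays in 3 groups had 3 residual degrees of freedom, and another on line averages had 1, with WT assumed to vary like the TKO lines. A fold is "at least" where some spots were dim: a dim spot counted as its own signal or, where higher, as its array's lowest signal that passed the background flag. Such a bound holds for the processed signal only, and other background corrections can give a smaller difference. Normexp used the median spot signal, since the files hold no mean signal.

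Members, classes and lists were chosen with earlier results of these data known. Text names members called in both lines and those of the first 4 classes called in 1 line, and of each list up to 4 called genes with the largest difference. Col1a1, Col1a2, Col2a1, Col16a1, Col18a1, Lox, Loxl4, Dcn, Bgn, Sox1, Pax6 and the markers left out of sums were added after their values were seen. So were Meox2, Thy1, S100a4, Acan, Matn3, Ucma, Zfp42 and Pou5f1. On simulated data of 21421 genes, the rule of calls in both lines found 7.91% of the genes set to differ by a log2 of 1, 94.3% of those at 2 and 100% of those at 4, with 0.1 unchanged genes called on average over 10 draws. The simulation gave all genes the same spread between arrays and no spread between lines, and used no filter on dim probes. Its count of unchanged genes called therefore does not cover differences between lines. Figures used Python 3.11.15, pandas 2.3.3 and matplotlib 3.10.9.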

Additional observations from a re-analysis of the deposited data

How the results depend on the processing

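Of 173 values of single named collagens under 15 alternatives, 165 kept their call, 6 lost it, 2 gained it and 0 changed sign. The variance trend and the replicate block leave the differences as they are, so no sign could change there. With the mean of the tested probes, a difference could change only where a second probe was tested. Among the collagens that fell these were Col4a6 and Col23a1. The 10 collagens that fell were the same 10 in the authors' matrix, with the percentile over all probes, with quantile normalization, without a filter, with the mean of the tested probes, with a variance trend and with the replicate block. Normexp left 7 of them, and the filter on all 6 arrays left 4 of 16 tested, since the rest had a dim TKO spot. Leaving out an array gave 9 to 11, with Col4a6 lost or Col18a1 gained. On line averages (2 collagens), normexp gave 6, the authors' matrix 10, the variance trend 8, and quantile normalization, the filter on all 6 arrays and no filter 0 each; leaving out an array gave 0 to 5, with 5 without TKO#29 replicate 1 and 0 without each of the others. Between the TKO lines the variance trend gave 1, and leaving out an array gave 0 to 2, the 2 without TKO#26 replicate 2. No collagen rose under any alternative in limma. The median difference (-0.51) was -0.25 in the authors' matrix and -0.11 over the genes above background on all 6 arrays (all genes -0.05), and -0.85 to -0.35 with an array left out, at its ends WT replicate 1 and WT replicate 2. The cause of these shifts was not tested beyond what each setting leaves out.

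The difference of replicate 1 minus replicate 2 was weakly correlated between lines (r -0.23 for TKO#26 and TKO#29, 0.17 for TKO#26 and WT, -0.16 for TKO#29 and WT). Replicate 1 of WT and of TKO#26 lay in slide column 1 and replicate 2 of both in column 2. The TKO#29 arrays lay in columns 3 and 4. With the replicate block the counts were 10 lower, 0 higher, 2 on line averages and 0 between the TKO lines, and the median was -0.51. Of all calls in both lines, 306 were higher and 889 lower with normexp, against 867 and 1412 with the processed signal as reported; the median of all genes shifted to -0.14 with normexp and to -0.24 without a filter. Dim signals limit Col11a1, Col14a1, Col22a1, Col9a1, Col4a6 and Col23a1 to bounds on the processed signal, and 1 WT line and 2 TKO lines limit every statement on genotype.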
